A study of Mus musculus with 6 samples.

Results

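Collagen chain genes were followed in the peritoneum of mice treated to model encapsulating peritoneal sclerosis (EPS), in which scar tissue wraps the gut. A gene was taken as a collagen chain when its symbol was Col, a type number, the letter a and a chain number. This gave 41 of the 14943 symbols in the count table. The 3 EPS libraries came from WT male C57BL/6J mice, aged 8 weeks, with daily intraperitoneal doses of 4.25% peritoneal dialysis solution (PDS) at 100 mL/kg together with SHS, an agent the labels do not spell out, at 0.3 mL. They also had lipopolysaccharide (LPS), an endotoxin of bacteria, weekly at 4 mg/kg by the same route. The 3 control libraries came from like mice whose injections held saline in equal volume. Peritoneum was collected in week 3, when adhesions were seen in the EPS mice. All agents were given together, so their effects cannot be told apart. The labels do not say whether each library is 1 animal. The p-values therefore weigh the group difference against the spread between these libraries, which may differ from that between mice.

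Collagens are secreted proteins whose chains wind around one another into a triple helix and assemble into fibres or sheets outside the cell. Fibrillar collagens form the rope-like fibrils of connective tissue and scar, and collagen IV forms the network of basement membranes beneath mesothelium and around vessels, fat cells and smooth muscle. Collagen VI forms beaded filaments between cells and fibrils, FACIT collagens sit on the surface of fibrils, multiplexins bridge basement membranes to the tissue around them, and transmembrane collagens stay anchored in the cell surface. In fibrosis, fibroblasts and myofibroblasts are the main producers of the fibrillar types, while vessels and fat cells are rich in collagen IV.

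The main chains of scar fibrils and of basement membranes moved in opposite directions. The type I and type III fibrillar chains rose in EPS, the main basement membrane chains Col4a1 and Col4a2 fell by about the same amount as each other, and the classical collagen VI chains Col6a1, Col6a2 and Col6a3 were not called. Of the 41 chains, 40 were tested, of which 14 were higher and 11 lower in EPS and 15 were not called at an edgeR adjusted p under 0.05. Over all 13980 tested genes, 29.2% were called higher and 30.4% lower (59.6% in either direction), so these shares are close to those of the whole table. The median log2 fold change was 0.49 over the tested chains, 0.07 without EPS 2, and -0.02 over all tested genes. Of the chains, 9 reached the filter on low counts through 1 group only: Col6a4, Col9a3, Col17a1, Col22a1, Col24a1 and Col26a1 through EPS, and Col4a3, Col9a2 and Col19a1 through controls. Among the 31 that reached it in both groups, 9 were higher, 8 lower and 14 not called. Without EPS 1, 17 chains were higher and 9 lower, and without EPS 2, 14 and 13. Without control 2, 7 chains were lower, and with library totals in place of TMM factors 18 were higher and 6 lower, a scaling that took the median of all tested genes to 0.41.

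Levels are given as CPM, counts relative to a library size scaled by edgeR's TMM factors. Library totals were even, between 15419232 and 17684229 counts. EPS 1 stood apart: 20 genes of the exocrine pancreas held 19.7% of its counts, against at most 0.0898% in EPS 2 and EPS 3 and at most 0.439% in controls. The nearest pair of libraries was controls 1 and 2 (mean chi-square per gene of 4.41, next lowest 15.9). Counted as 1 sample, they left 14 chains higher and 8 lower. All 11 mesothelial markers listed had counts, summing to 405, 294 and 60.8 CPM in EPS 1 to 3, against 237, 242 and 155 CPM in controls 1 to 3. None was called. In EPS 1 the keratin genes Krt8 and Krt18 made up 86.3 and 106 CPM of that sum. Only for Upk3b did the groups not overlap, with 51.6, 42.7 and 11.3 CPM in EPS 1 to 3, against 95.5, 94.4 and 65.8 CPM in controls 1 to 3. The 10 adipocyte markers summed to 2574, 4274 and 4169.6 CPM in EPS 1 to 3, against 28289, 29038 and 28749 CPM in controls 1 to 3. Adipocyte RNA was thus plentiful in the tissue labelled peritoneum, most of all in controls. In bulk tissue, fewer cells of a type and less RNA per cell cannot be told apart.

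**Figure D1:**
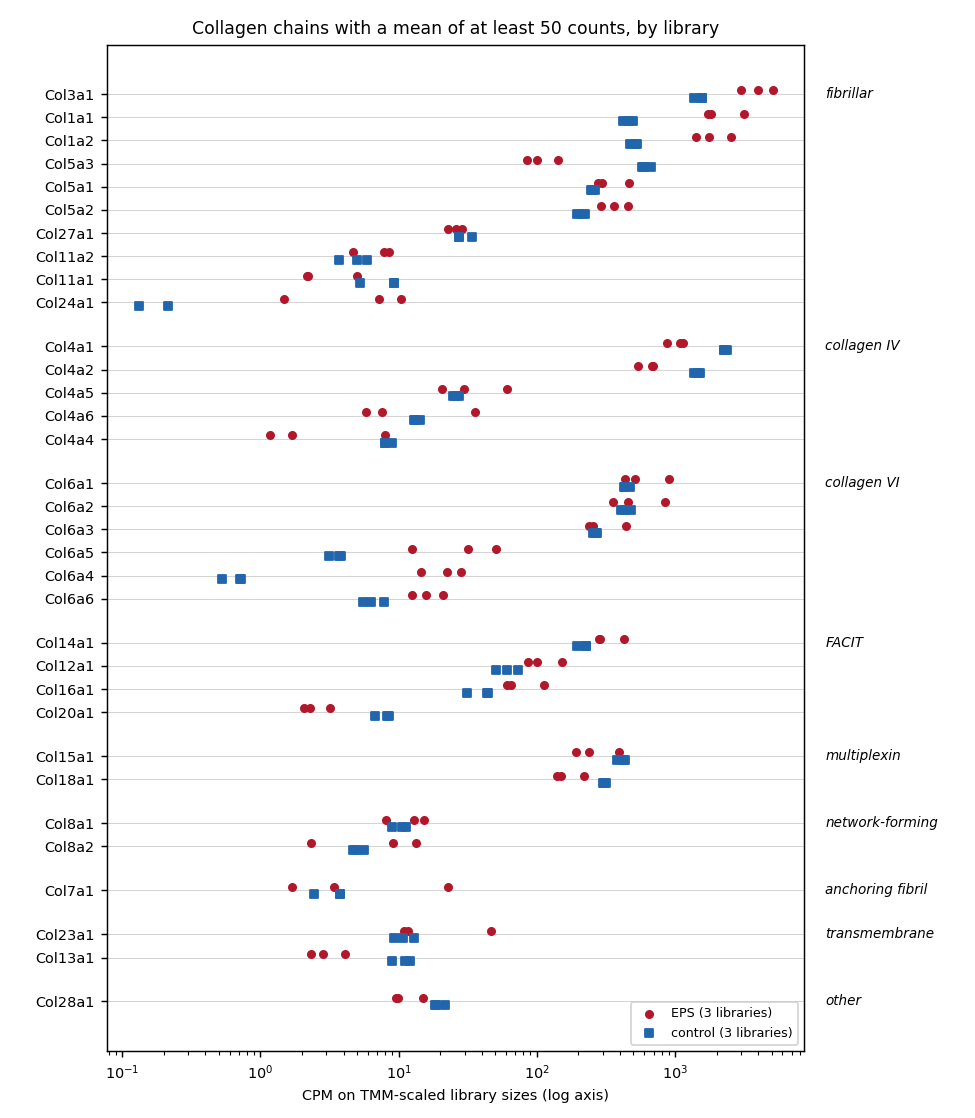
CPM on TMM-scaled library sizes, on a log axis, for the 33 collagen chains with a mean of at least 50 counts, grouped by class. Each circle is an EPS library and each square a control library. Col24a1 had 0 counts in control 3, which a log axis cannot show, and the EPS libraries of Col1a1, Col1a2, Col3a1 and Col5a2 all lie to the right of the controls while those of Col4a1, Col4a2 and Col5a3 all lie to the left.

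In EPS, the most abundant chains were fibrillar. Type I collagen, the main protein of scar fibrils, is built of Col1a1 and Col1a2 chains. Col1a1 (chr11:94936224-94953042, mm10, as for all places given here) had 1819.7, 3136 and 1745 CPM in EPS 1 to 3, against 467, 493 and 424 CPM in controls 1 to 3. It rose 4.84-fold (log2 fold change 2.28 ± 0.24, adjusted p = 0.000111). Col1a2 (chr6:4504814-4541544) had 1757, 2550.5 and 1427 CPM in EPS 1 to 3, against 535, 512 and 475 CPM in controls 1 to 3, a rise of 3.77-fold (1.91 ± 0.22, adjusted p = 0.000151). For both chains the lowest EPS library stood well above the highest control, and EPS 2 was the highest. Col3a1 (chr1:45311538-45349706), the only chain of type III collagen, which is laid down early in wounds and in vessel walls, had 4021, 5097 and 3010.2 CPM in EPS 1 to 3, against 1562, 1568 and 1365 CPM in controls 1 to 3. It rose 2.7-fold (log2 fold change 1.43 ± 0.20, adjusted p = 0.000492) and was the most abundant chain per length in EPS.

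Type V collagen, which starts fibrils and limits their width, split by chain. Col5a2 had 362, 460.4 and 292 CPM in EPS 1 to 3, against 214, 224 and 196 CPM in controls 1 to 3, with no overlap between the groups (log2 fold change 0.81 ± 0.17, adjusted p = 0.00367). Col5a1 had 296, 467 and 278 CPM in EPS 1 to 3, against 246, 263 and 249 CPM in controls 1 to 3. Its groups did not overlap either, but the difference was not called (0.46 ± 0.20, adjusted p = 0.0754). It was called with RLE factors, with library totals, by DESeq2, without EPS 1 and without EPS 3, with adjusted p between 0.0119 and 0.187 over all alternatives. Col5a3, a chain described in mouse fat, muscle and pancreatic islets, had 84.8, 143 and 101 CPM in EPS 1 to 3, against 579, 597 and 671 CPM in controls 1 to 3. This was the deepest fall of any tested chain, 5.62-fold (log2 fold change -2.49 ± 0.20, adjusted p = 2.5e-05), and the highest EPS library was far below the lowest control.

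The minor fibrillar chains were low. Col24a1, a chain described in developing mouse bone, had 104, 222 and 30 counts in EPS 1 to 3 and 3, 2 and 0 counts in controls 1 to 3. This is 52.8-fold higher by the fitted value (log2 fold change 5.72 ± 1.00, adjusted p = 0.00193), the largest rise of any chain, but it rests on 5 control counts and stood at 6.44 on the log2 scale without control 1. Col11a1, a chain of cartilage fibrils, had 2.22, 5.03 and 2.18 CPM in EPS 1 to 3, against 9.21, 9.25 and 5.23 CPM in controls 1 to 3, and was called lower (-1.32 ± 0.40, adjusted p = 0.022). That call was lost on leaving out control 1 (adjusted p = 0.0775), control 2 (0.0769) or EPS 3 (0.0583), on averaging controls 1 and 2 (0.0768) and under library totals (0.107), over a range from 0.00331 to 0.107. Its partner Col11a2 had 4.64, 7.85 and 8.47 CPM in EPS 1 to 3, against 5.86, 5.02 and 3.70 CPM in controls 1 to 3, with overlapping groups (0.53 ± 0.30, adjusted p = 0.163). Without EPS 1 (adjusted p = 0.0224) and with library totals (0.0345) it was called higher, over a range from 0.0224 to 0.394. Col27a1 had 22.7, 28.7 and 25.9 CPM in EPS 1 to 3, against 27.3, 34 and 27.2 CPM in controls 1 to 3, and its groups overlapped (-0.19 ± 0.15, adjusted p = 0.286). Beside 29.2% higher and 30.4% lower over all tested genes, 5 of 10 tested fibrillar chains were higher, 2 lower and 3 not called. Their median log2 fold change was 0.67, and leaving out Col24a1, which reached the filter through EPS only, 4 of 9 were higher.

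Promoters of 33 of the 41 chains were found in RefSeq (GRCm38.p6, the assembly that mm10 denotes). Those of the most abundant chain in EPS, of the chain that fell most and of the chain with the largest fitted rise are shown as the 250 bases before the annotated start, 5′ to 3′ on the gene's strand. Col3a1 is chr1:45311288-45311537 (plus strand), Col5a3 is chr9:20815068-20815317 (minus strand) and Col24a1 is chr3:145292222-145292471 (plus strand). Capitals mark the motifs searched on both strands, which were the CCAAT box (CCAAT), the GC box (GGGCGG) and the TATA box (TATAAA).
Col3a1: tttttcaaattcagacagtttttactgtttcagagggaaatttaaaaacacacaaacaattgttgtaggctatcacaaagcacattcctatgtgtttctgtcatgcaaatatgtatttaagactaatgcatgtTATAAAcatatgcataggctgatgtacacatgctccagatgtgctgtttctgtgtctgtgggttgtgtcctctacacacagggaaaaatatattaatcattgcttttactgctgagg
Col5a3: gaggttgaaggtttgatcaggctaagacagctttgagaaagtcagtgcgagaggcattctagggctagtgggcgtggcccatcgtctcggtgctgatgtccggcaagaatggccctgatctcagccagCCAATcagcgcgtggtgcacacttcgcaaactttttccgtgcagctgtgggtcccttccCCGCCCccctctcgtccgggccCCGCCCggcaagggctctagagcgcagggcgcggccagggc
Col24a1: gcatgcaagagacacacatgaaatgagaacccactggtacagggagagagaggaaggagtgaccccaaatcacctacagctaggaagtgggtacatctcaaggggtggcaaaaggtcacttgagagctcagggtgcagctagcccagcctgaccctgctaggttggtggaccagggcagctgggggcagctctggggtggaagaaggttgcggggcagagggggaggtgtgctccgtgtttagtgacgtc
The Col3a1 window held TATAAA 117 bases before the start and none of the other motifs. The Col5a3 window held CCAAT 122 bases before the start and GGGCGG, on the opposite strand, at 63 and 41 bases. No motif matched in the Col24a1 window, which says only that these letters were not in it. Counting 1 window per gene symbol, the first in the table, CCAAT occurred in 12 of the 33 collagen genes (36.4%) and in 34.5% of 27025 symbols with a window of the same length, TATAAA in 4 (12.1%) and 13%, and GGGCGG in 21 (63.6%) and 32.9%. Matches may share letters, as those of GGGCGG at 19 and 15 bases before the start of Col8a2 do, and a match marks letters, not a bound site.

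**Figure D2:**
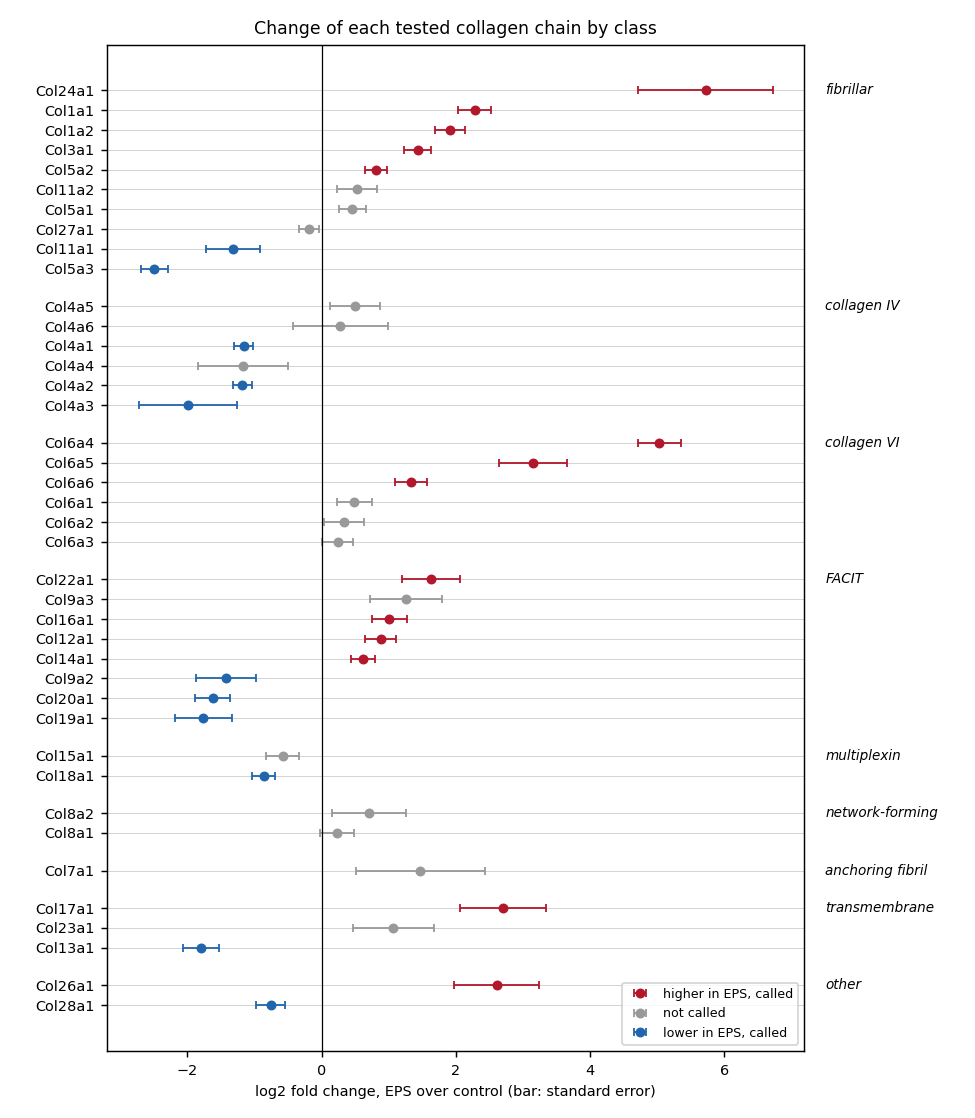
Log2 fold change of EPS over control for the 40 tested collagen chains, by class, with the standard error of each as a bar. Red points were called higher in EPS, blue points lower and grey points were not called. Points of the fibrillar class run from -2.49 for Col5a3 to 5.72 for Col24a1, and no chain of collagen IV is red and none of collagen VI is blue.

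Collagen IV chains fell or were not called. Col4a1 (chr8:11198423-11312826) and Col4a2 (chr8:11312805-11449287) form the trimer found in nearly all basement membranes, and lie head to head with starts that overlap by 22 bases. Col4a1 had 881, 1141 and 1085 CPM in EPS 1 to 3, against 2271, 2384 and 2278 CPM in controls 1 to 3. Col4a2 had 540.3, 686 and 695 CPM in EPS 1 to 3, against 1374, 1516 and 1473 CPM in controls 1 to 3. Every EPS library lay below every control for both genes, and the falls were of like size, 2.23-fold for Col4a1 (log2 fold change -1.16 ± 0.14, adjusted p = 0.000222) and 2.27-fold for Col4a2 (-1.18 ± 0.14, adjusted p = 0.000211). The 10 blood endothelial markers, all called lower, summed to 1095, 1268 and 1323 CPM in EPS 1 to 3, against 2791, 2852 and 2710.2 CPM in controls 1 to 3, with Tek, an angiopoietin receptor, at -1.75 ± 0.10, adjusted p = 4.38e-06 and Robo4, a vessel guidance receptor, at -1.88 ± 0.11, adjusted p = 6.37e-06. The 10 adipocyte markers were also all lower, beside 30.4% of all tested genes called lower. The part of both marker lists in the fall of Col4a1 and Col4a2 was not tested.

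The other collagen IV chains, known from kidney, lung and smooth muscle basement membranes, depended on EPS 2. Col4a3 had 12, 57 and 4 counts in EPS 1 to 3 and 78, 69 and 73 counts in controls 1 to 3 and was called lower (log2 fold change -1.99 ± 0.73, adjusted p = 0.0471), at -3.33 without EPS 2. The call held in 8 of 16 alternatives, with adjusted p from 0.00209 to 0.118, and was lost without any 1 control and without EPS 1. Col4a4 had 1.18, 7.99 and 1.68 CPM in EPS 1 to 3, against 8.93, 7.93 and 7.94 CPM in controls 1 to 3. EPS 2 was at the control level while EPS 1 and EPS 3 were far below it, and the difference was not called (-1.17 ± 0.67, adjusted p = 0.168), and it was without EPS 2 (-2.51, adjusted p = 0.000345) and by limma-voom (-1.57, adjusted p = 0.0427), over a range from 0.000345 to 0.477. Col4a5 had 29.5, 60.7 and 20.5 CPM in EPS 1 to 3, against 24.7, 27.5 and 26 CPM in controls 1 to 3, not called (0.50 ± 0.37, adjusted p = 0.279). Col4a6 had 7.62, 35.6 and 5.80 CPM in EPS 1 to 3, against 13.1, 13 and 14.4 CPM in controls 1 to 3, with EPS 2 above and the other EPS libraries below the controls (0.28 ± 0.71, adjusted p = 0.753). Without EPS 2 it was called lower (-1.01, adjusted p = 0.00431, range 0.00431 to 0.860), and Col4a5 stood at -0.06. The 8 smooth muscle and pericyte markers summed to 1102, 2376 and 852 CPM in EPS 1 to 3, against 3581, 3749 and 3491 CPM in controls 1 to 3. Myh11, the smooth muscle myosin, made up much of that sum, with 509, 1475 and 329 CPM in EPS 1 to 3, against 1916, 2056 and 1845 CPM in controls 1 to 3. The highest EPS library was EPS 2 for Myh11, Cnn1, Des and Notch3, EPS 1 for Rgs5 and Abcc9, and EPS 3 for Kcnj8 and Cspg4. Their part in these values was not tested. Over the class, 0 of 6 chains were higher, 3 lower and 3 not called by edgeR, 5 were lower without EPS 2, and the median log2 fold change was -1.17. Col4a3 reached the filter through controls only, and among the 5 chains that reached it in both groups 2 were lower. Over all tested genes 30.4% were called lower.

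The classical collagen VI chains Col6a1, Col6a2 and Col6a3, which together form the standard filament, did not pass the test. Col6a1 had 517, 905 and 437 CPM in EPS 1 to 3, against 433, 469.9 and 425 CPM in controls 1 to 3 (log2 fold change 0.49 ± 0.26, adjusted p = 0.144). Col6a2 had 455, 848 and 356 CPM in EPS 1 to 3, against 434, 478 and 409.7 CPM in controls 1 to 3 (0.33 ± 0.30, adjusted p = 0.375). For both chains EPS 2 stood far above every other library. Col6a3 had 257, 444 and 238 CPM in EPS 1 to 3, against 270.4, 271 and 256 CPM in controls 1 to 3 (0.24 ± 0.23, adjusted p = 0.405). Without EPS 2, Col6a2 and Col6a3 changed sign, to -0.12 and -0.10, and neither was called. Col6a1 was called higher without EPS 3 (adjusted p = 0.0363), by DESeq2 (0.0453) and with library totals (0.0228), over a range from 0.0228 to 0.458.

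Col6a4, Col6a5 and Col6a6, long chains that can stand in place of Col6a3 in mice, lie side by side on chromosome 9, and all 3 rose. Col6a4 (chr9:105989454-106096783) had 14.6, 22.3 and 28.2 CPM in EPS 1 to 3, against 0.714, 0.529 and 0.728 CPM in controls 1 to 3. It rose 32.8-fold (log2 fold change 5.03 ± 0.32, adjusted p = 8.35e-06), the lowest adjusted p of any chain. Col6a4 reached the filter on low counts through EPS only, with 10, 8 and 11 counts in controls 1 to 3. Col6a5 (chr9:105856078-105960643) had 31.7, 50.6 and 12.5 CPM in EPS 1 to 3, against 3.14, 3.70 and 3.84 CPM in controls 1 to 3, a rise of 8.86-fold (3.15 ± 0.50, adjusted p = 0.00157). Col6a6 (chr9:105687809-105828160) had 15.8, 21 and 12.6 CPM in EPS 1 to 3, against 6.36, 7.80 and 5.49 CPM in controls 1 to 3 and rose 2.52-fold (1.33 ± 0.24, adjusted p = 0.00159). EPS 3 was the highest for Col6a4 and the lowest for Col6a5 and Col6a6, so the 3 neighbours did not follow one order over the EPS libraries. Per kb of exon, their EPS levels of 2.54, 3.36 and 1.80 CPM stayed far under the 26.2 CPM of Col6a3. Of the 5 collagen VI chains that reached the filter in both groups, 2 were higher, 0 lower and 3 not called. The called shares over all tested genes were 29.2% higher and 30.4% lower.

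Among FACIT chains, Col12a1, Col14a1 and Col16a1, which lie along fibrils in connective tissue, rose. Col14a1 had 283, 426 and 286 CPM in EPS 1 to 3, against 226, 227 and 196 CPM in controls 1 to 3 (log2 fold change 0.62 ± 0.18, adjusted p = 0.0159), and its call was lost without control 3 (adjusted p = 0.0665, range 0.000694 to 0.0665). Col12a1 had 86.1, 152 and 101 CPM in EPS 1 to 3, against 61.3, 72.6 and 50.3 CPM in controls 1 to 3 (0.88 ± 0.23, adjusted p = 0.0124). Col16a1 had 60.4, 113 and 65.6 CPM in EPS 1 to 3, against 44.3, 43.5 and 31.1 CPM in controls 1 to 3 (1.01 ± 0.26, adjusted p = 0.013). For these 3 chains the groups did not overlap, and the rises were between 1.53-fold and 2.01-fold. Over all tested genes, 33.1% did not overlap with EPS higher and 35.4% with EPS lower. Col20a1 had 2.29, 3.20 and 2.08 CPM in EPS 1 to 3, against 8.21, 8.46 and 6.75 CPM in controls 1 to 3 and fell 3.08-fold (-1.62 ± 0.26, adjusted p = 0.000952). Of the low FACIT chains, Col19a1, known from basement membrane zones, had 9, 8 and 7 counts in EPS 1 to 3 and 19, 27 and 21 counts in controls 1 to 3 (-1.76 ± 0.43, adjusted p = 0.00842). Col22a1, a chain of tissue junctions such as that of muscle and tendon, had 18, 21 and 24 counts in EPS 1 to 3 and 5, 5 and 6 counts in controls 1 to 3 (1.63 ± 0.43, adjusted p = 0.0115) and was not called without control 2 (0.0540, range 0.00539 to 0.0540). The cartilage chain Col9a2 had 5, 7 and 7 counts in EPS 1 to 3 and 12, 16 and 13 counts in controls 1 to 3 and was called lower (-1.42 ± 0.45, adjusted p = 0.0241), a call lost in 11 of 16 alternatives, each left-out library among them. Col9a3 had 15, 51 and 28 counts in EPS 1 to 3 and 4, 12 and 14 counts in controls 1 to 3 and was not called (1.26 ± 0.54, adjusted p = 0.076), though it was without EPS 1 (0.0393) and with library totals (0.0243), over a range from 0.0243 to 0.246. Across the class, 4 of 8 were higher, 3 lower and 1 not called, with a median log2 fold change of 0.75. The called shares over all tested genes were 29.2% higher and 30.4% lower. Among the 4 FACIT chains that reached the filter in both groups, 3 were higher and 1 lower. Col9a3 and Col22a1 reached it through EPS only, and Col9a2 and Col19a1 through controls only.

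Multiplexins, whose tails can be cut to release fragments such as endostatin, were lower or not called. Col18a1, the source of endostatin, had 141, 219.7 and 149.8 CPM in EPS 1 to 3, against 307, 315 and 302 CPM in controls 1 to 3. It fell 1.81-fold (log2 fold change -0.86 ± 0.17, adjusted p = 0.00308), with no overlap, though with library totals it was not called (adjusted p = 0.187, range 3.44e-05 to 0.187). Col15a1 had 237, 393 and 192 CPM in EPS 1 to 3, against 381, 418 and 432 CPM in controls 1 to 3. EPS 2 lay within the controls and the other EPS libraries below them (-0.58 ± 0.25, adjusted p = 0.0788). Without EPS 2 it was called lower (-0.93, adjusted p = 0.000842), as it was by DESeq2 (0.0410) and by limma-voom (0.0488), over a range from 0.000842 to 0.707.

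The remaining classes held low chains. Of the transmembrane collagens, Col13a1, known from nerve-muscle junctions, had 2.84, 4.09 and 2.33 CPM in EPS 1 to 3, against 9, 12.1 and 11.1 CPM in controls 1 to 3 and fell 3.47-fold (log2 fold change -1.79 ± 0.27, adjusted p = 0.000657). Col23a1 had 10.9, 46.4 and 11.6 CPM in EPS 1 to 3, against 10.8, 13 and 9.26 CPM in controls 1 to 3. EPS 2 stood far above every other library, and the difference was not called (1.07 ± 0.60, adjusted p = 0.174). Without EPS 2 the log2 fold change was 0.03 (adjusted p = 0.896), and DESeq2 called the rise (0.0371), the ends of the range. Col17a1, a hemidesmosome protein of epithelia, had 24, 100 and 40 counts in EPS 1 to 3 and 2, 6 and 11 counts in controls 1 to 3 and rose (2.70 ± 0.64, adjusted p = 0.0073), at 3.32 without control 3 and 2.08 without EPS 2. Col25a1, a chain of neurons, had 2, 1 and 0 counts in EPS 1 to 3 and 6, 1 and 0 counts in controls 1 to 3 and was not tested. Col28a1, described around mouse Schwann cells, had 9.91, 15.1 and 9.51 CPM in EPS 1 to 3, against 18.6, 21.6 and 18.4 CPM in controls 1 to 3. It fell 1.7-fold (-0.76 ± 0.21, adjusted p = 0.0127), and was not called without control 2 (0.0522) or with library totals (0.325), over a range from 0.00167 to 0.325. Of the 6 Schwann cell markers 4 were called lower, beside 30.4% of all tested genes. The 6 markers summed to 47.2, 65.8 and 57.7 CPM in EPS 1 to 3, against 143, 146 and 143 CPM in controls 1 to 3. Their part in the fall of Col28a1 was not tested. Col26a1, described in mouse testis and ovary, had 19, 52 and 26 counts in EPS 1 to 3 and 4, 7 and 1 counts in controls 1 to 3 and rose (2.61 ± 0.63, adjusted p = 0.00763), at 3.23 without control 2. Both Col17a1 and Col26a1 reached the filter on low counts through EPS only.

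Network-forming and anchoring chains were not called. Col8a1, found in vessel walls and the cornea, had 13, 15.2 and 8.12 CPM in EPS 1 to 3, against 10.6, 11.3 and 9 CPM in controls 1 to 3 (log2 fold change 0.23 ± 0.25, adjusted p = 0.437). Col8a2 had 9.08, 13.4 and 2.33 CPM in EPS 1 to 3, against 5.57, 4.89 and 4.70 CPM in controls 1 to 3, with EPS 3 below and the other EPS libraries above the controls (0.71 ± 0.55, adjusted p = 0.297). Without EPS 3 it was called higher (1.16, adjusted p = 0.00448, range 0.00448 to 0.807). Col7a1, which forms the anchoring fibrils of skin and other lined surfaces, had 22.9, 3.43 and 1.68 CPM in EPS 1 to 3, against 3.78, 3.77 and 2.45 CPM in controls 1 to 3. EPS 1 alone was high (1.47 ± 0.96, adjusted p = 0.232), and without it the sign turned (-0.32, adjusted p = 0.517). In EPS 1 the exocrine pancreas genes were also far above the other libraries, and 5 epidermal markers summed to 41.2, 30.9 and 4.36 CPM in EPS 1 to 3, against 5.50, 5.62 and 6.75 CPM in controls 1 to 3. Of these only Dsp, for desmoplakin, was highest in EPS 1, with 34.2, 16.7 and 0.793 CPM in EPS 1 to 3, against 1.57, 0.793 and 1.39 CPM in controls 1 to 3, while Krt5, Krt14 and Trp63 were highest in EPS 2 and Krt10 in EPS 3. Their part in the level of Col7a1 was not tested. The listed chains Col2a1, Col9a1 and Col10a1 were not analysed here.

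EPS 2 was the highest EPS library for 33 of the 40 tested chains and for 12 of the 14 called higher. Over all tested genes EPS 2 was the highest for 29.7%. The chains called lower also had their highest EPS value there in most cases, as with Col5a3 at 143 CPM against 84.8 and 101 CPM in EPS 1 and EPS 3.

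The make-up of the collagen RNA differed between the groups. Collagen chains took 1.12%, 2.24% and 1.35% of all counts in EPS 1 to 3, against 0.834%, 0.86% and 0.824% in controls 1 to 3. Each EPS library was above each control, with EPS 2 the highest. The pancreas genes in EPS 1 count in its total, and on TMM-scaled sizes the chains summed to 12015, 17546 and 10623 CPM in EPS 1 to 3, against 9579.7, 10044 and 9399.7 CPM in controls 1 to 3. Fibrillar chains took 67.5% ± 2.45 in EPS and 37.1% ± 0.87 in controls (SD, n = 3 each) of the collagen counts. Collagen IV took 13.4% ± 3.19 in EPS and 39.5% ± 0.943 in controls (SD, n = 3 each). In each EPS library the fibrillar class was by far the larger, and in controls these classes were nearly level. Collagen VI took 11.3% ± 1.51 in EPS and 12% ± 0.267 in controls (SD, n = 3 each), and its range in EPS covered that in controls. Multiplexins took 3.29% ± 0.184 in EPS and 7.43% ± 0.333 in controls (SD, n = 3 each), and FACIT chains 3.97% ± 0.346 in EPS and 3.39% ± 0.287 in controls (SD, n = 3 each). Exact 95% Clopper-Pearson intervals of the fibrillar share, which cover counting error only, were 64.9% (64.7 to 65.1) in EPS 3 and 38.1% (37.8 to 38.3) in control 1, the nearest pair of libraries between the groups. Long genes collect more reads. Per kb of exon, fibrillar chains took 63.3%, 61.7% and 58.8% in EPS 1 to 3, against 32.6%, 31.6% and 31.3% in controls 1 to 3, where collagen IV took 41.0%, 41.6% and 42.6%. Per kb of longest transcript, collagen IV was not above the fibrillar class in any control, at 35.2%, 35.9% and 37.0% beside 38.8%, 37.5% and 37.0%, so the order of these classes in controls depends on the length used.

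**Figure D3:**
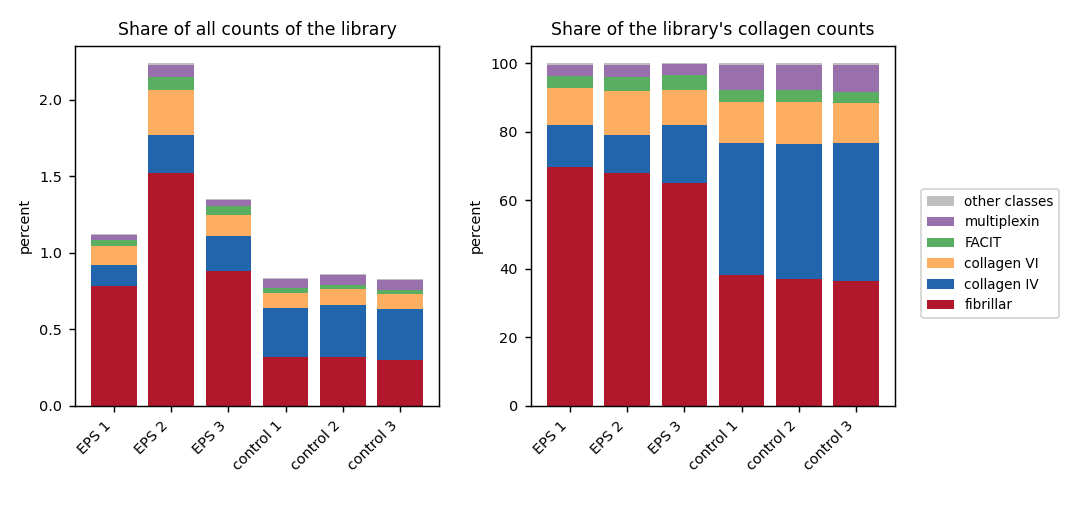
Percent of all counts of each library (left) and percent of that library's collagen counts (right) that fell on each collagen class, as stacked bars for EPS 1 to 3 and controls 1 to 3. Fibrillar chains hold between 64.9% and 69.7% of the collagen counts in EPS libraries and between 36.3% and 38.1% in controls.

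Per kb of exon, on TMM-scaled CPM, Col3a1 led in EPS with a mean of 412, followed by Col1a1 at 340.3, Col1a2 at 154, Col6a1 at 142 and Col4a1 at 139. In controls the order was Col4a1 at 309.6, Col4a2 at 219.7, Col3a1 at 153, Col6a1 at 101 and Col5a3 at 90.4. Per kb of longest transcript, Col3a1 led in EPS too, while in controls it stood at 269, between Col4a1 at 349 and Col4a2 at 225, so the order in controls depends on the length used. The level of Col1a2 does as well, since its annotated exons sum to 12426 bases and its longest transcript to 5348. Per kb of longest transcript it stood at 357 in EPS and 94.9 in controls.

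Ratios between 2 chains of a library need no scaling factor, and 10 were set against each other with a two-sided exact permutation test, whose smallest p with 3 against 3 libraries is 0.1. Col1a1 over Col1a2, the chains that join in type I collagen, was 1.96, 2.33 and 2.31 in EPS 1 to 3, against 1.65, 1.82 and 1.69 in controls 1 to 3 per kb of exon. Its groups did not overlap, with a log2 difference of 0.35. By the longest transcript the ratio averaged 1.05 ± 0.0990 in EPS and 0.820 ± 0.0428 in controls (SD, n = 3 each). Col1a1 over Col3a1 was 0.677, 0.92 and 0.867 in EPS 1 to 3, against 0.447, 0.47 and 0.465 in controls 1 to 3, a log2 difference of 0.82. In each EPS library Col1a1 stood higher relative to Col3a1 than in any control. Col5a1 over Col1a1, the fibril starter over the fibril's main chain, was 0.126, 0.115 and 0.123 in EPS 1 to 3, against 0.407, 0.412 and 0.454 in controls 1 to 3 (log2 difference -1.80), and Col5a3 over Col5a1 was 0.357, 0.382 and 0.451 in EPS 1 to 3, against 2.94, 2.84 and 3.35 in controls 1 to 3 (-2.94). Col5a1 over Col5a2 (-0.37), Col6a1 over Col6a2 (0.18) and Col6a3 over Col6a1 (-0.24) also did not overlap. Those 7 ratios each had p = 0.1 by the exact permutation test, 0.143 adjusted over the 10 ratios.

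Col4a1 over Col4a2 was 1.45, 1.48 and 1.38 in EPS 1 to 3, against 1.47, 1.39 and 1.37 in controls 1 to 3. The groups overlapped (log2 difference 0.03, exact permutation p = 0.7), and the ratio differed by less than the spread of the libraries. Col15a1 over Col18a1 (0.24, exact permutation p = 0.3) and Col8a1 over Col8a2 (-0.19, exact permutation p = 0.8) overlapped too, and the last turned to 0.14 without EPS 2.

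**Figure D4:**
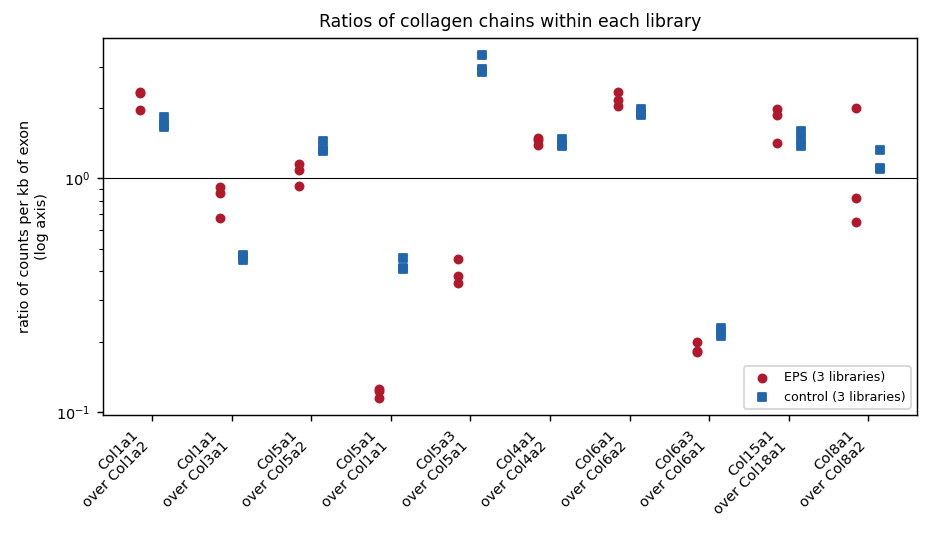
Ratio of counts per kb of exon of 2 collagen chains within each library, on a log axis, for 10 pairs. Circles are EPS libraries and squares control libraries, and the line marks a ratio of 1. Col5a3 over Col5a1 lies between 0.357 and 0.451 in EPS and between 2.84 and 3.35 in controls, while Col4a1 over Col4a2 overlaps.

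Genes whose products modify, export, link, bind or break down collagen were read beside the chains. Of 65 such genes tested, 24 were higher, 20 lower and 21 not called, against the 29.2% and 30.4% of all tested genes, with a median log2 fold change of 0.28. With library totals, 37 were higher and 6 lower. Partners of collagen IV fell. All 4 were lower, with a median of -1.16. Pxdn, the peroxidase that cross-links collagen IV, averaged 145 ± 40.1 CPM in EPS and 671 ± 19.4 CPM in controls (-2.21 ± 0.20, adjusted p = 3.72e-05). Hspg2, which encodes perlecan, averaged 509 ± 162 CPM in EPS and 1297 ± 89.3 CPM in controls (-1.35 ± 0.22, adjusted p = 0.00111). The linkers Nid1 and Nid2, for nidogens, stood at -0.97 ± 0.18, adjusted p = 0.00231 and -0.94 ± 0.14, adjusted p = 0.000757. With library totals the falls of Nid1 (adjusted p = 0.0854), Tnxb (0.106), Sparc (0.349), Plod3 (0.364), Tgm2 (0.560), Klhl12 (0.636) and Sec23a (0.695) were not called, each the highest value over the alternatives.

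Cross-linking enzymes of fibrils rose in 4 of 6 cases, with 1 lower and 1 not called (median 0.73). Lox, lysyl oxidase, averaged 81.4 ± 10.5 CPM in EPS and 49.1 ± 2.05 CPM in controls (0.73 ± 0.12, adjusted p = 0.000952), and its relatives Loxl3 (1.10 ± 0.19, adjusted p = 0.00129) and Loxl1 (0.72 ± 0.18, adjusted p = 0.0088) rose as well. Tgm2, a transglutaminase, fell (-0.59 ± 0.10, adjusted p = 0.00129). Of 19 genes that modify and fold chains 7 were higher and 6 lower (median 0.14). Over all tested genes 29.2% were higher and 30.4% lower. Colgalt1, which adds galactose to collagen, averaged 202 ± 16.1 CPM in EPS and 130.4 ± 2.25 CPM in controls (0.63 ± 0.10, adjusted p = 0.000778), P4ha1, a subunit of prolyl hydroxylase, rose (0.62 ± 0.11, adjusted p = 0.00154) and so did Fkbp10, a folding helper (0.80 ± 0.15, adjusted p = 0.0023). Plod3, a lysyl hydroxylase, fell (-0.68 ± 0.13, adjusted p = 0.00243). Serpinh1, the collagen chaperone HSP47, was also lower, at 460.2, 567 and 625 CPM in EPS 1 to 3, against 832, 834 and 859.6 CPM in controls 1 to 3 (-0.61 ± 0.14, adjusted p = 0.00642), and is named after its values were seen. With library totals it was not called (0.603, lowest over the alternatives 0.000729).

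Export and propeptide genes numbered 3 higher and 3 lower of 12 (median 0.29), beside 29.2% and 30.4% of all tested genes. Pcolce2, an enhancer of propeptide removal, averaged 13.3 ± 1.92 CPM in EPS and 50.9 ± 2.77 CPM in controls (-1.94 ± 0.14, adjusted p = 1.34e-05). Adamts3, a propeptide protease, rose (1.69 ± 0.35, adjusted p = 0.00358), and Sec23a and Klhl12, which shape large export vesicles, fell (-0.51 ± 0.10, adjusted p = 0.00208 and -0.55 ± 0.16, adjusted p = 0.0167). Mia3 and Sec24d, the other called genes of this list, rose (0.59 ± 0.19, adjusted p = 0.0278 and 0.40 ± 0.14, adjusted p = 0.0384). Klhl12 was not called without control 2 (0.0706, lowest over the alternatives 0.0142). Of 8 fibril-associated genes 2 were higher and 2 lower. Lum, for lumican, averaged 233 ± 80.9 CPM in EPS and 69.1 ± 4.43 CPM in controls (1.75 ± 0.26, adjusted p = 0.000814), and Bgn, for biglycan, rose (0.91 ± 0.19, adjusted p = 0.00386). Tnxb, for tenascin X, and Sparc, a collagen-binding protein of basement membranes, fell (-0.95 ± 0.21, adjusted p = 0.00605 and -0.75 ± 0.19, adjusted p = 0.0089).

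Of 9 receptor genes 3 were higher and 3 lower (median -0.09), beside 29.2% higher and 30.4% lower over all tested genes. Lair1, a collagen receptor of white blood cells, averaged 45.1 ± 8.09 CPM in EPS and 2.75 ± 0.494 CPM in controls (4.04 ± 0.21, adjusted p = 3.29e-06), beside 7 macrophage markers that were all higher and summed to 2057, 2047 and 1864 CPM in EPS 1 to 3, against 406, 417 and 435 CPM in controls 1 to 3. The part of these cells in that value was not tested. Itga2, an integrin chain that binds collagen, and Mrc2, which takes up collagen fragments, rose (1.89 ± 0.33, adjusted p = 0.00148 and 1.14 ± 0.28, adjusted p = 0.00931), while Itga1 fell (-0.98 ± 0.17, adjusted p = 0.00123). Genes of collagen breakdown rose in 5 of 7 cases, with 1 lower (median 1.87). Mmp2, a gelatinase, averaged 239 ± 82.3 CPM in EPS and 50.6 ± 2.17 CPM in controls (2.24 ± 0.26, adjusted p = 0.000253), Mmp14, a membrane-bound collagenase, averaged 277 ± 64.4 CPM in EPS and 76 ± 4.55 CPM in controls (1.87 ± 0.18, adjusted p = 5.81e-05), and Ctsk, cathepsin K, rose (1.42 ± 0.20, adjusted p = 0.000438). Mmp8, the collagenase of neutrophils, had 411, 671 and 1286 counts in EPS 1 to 3 and 3, 0 and 1 counts in controls 1 to 3 (8.72 ± 0.65, adjusted p = 2.82e-05), at 10 on the log2 scale without control 1, beside 7 neutrophil markers that were all higher and summed to 575, 797 and 1908 CPM in EPS 1 to 3, against 4.78, 5.09 and 4.17 CPM in controls 1 to 3. The part of neutrophils in the value of Mmp8 was not tested. Every control lay under the filter's limit of 0.611 CPM for Mmp8, so it reached the filter through EPS only.

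**Figure D5:**
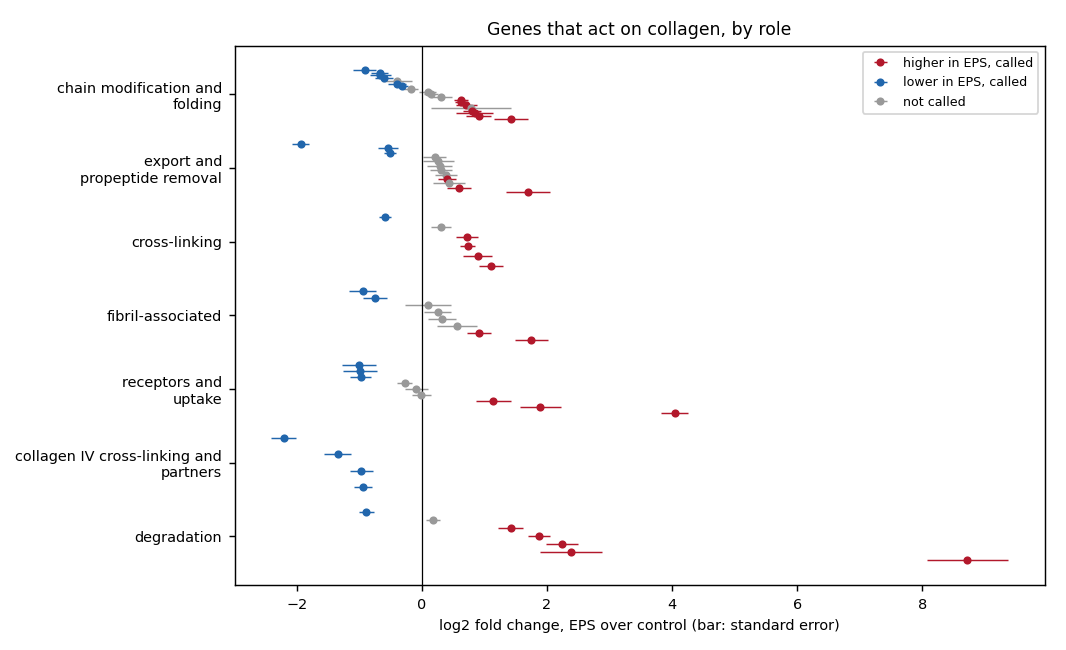
Log2 fold change of EPS over control, with its standard error, for 65 genes that act on collagen, in 7 groups by role. Red points were called higher in EPS, blue points lower and grey points were not called. All 4 collagen IV partners lie below 0, and 5 of 7 breakdown genes are red.

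Fibroblast markers gave no common direction beside the fibrillar chains. Of 10, 4 were higher and 2 lower, beside 29.2% higher and 30.4% lower over all tested genes. The 10 markers summed to 1011, 1297 and 947 CPM in EPS 1 to 3, against 1139, 1132 and 1179 CPM in controls 1 to 3. Thy1 and Dpp4, surface proteins of fibroblasts and of some lymphocytes, rose (2.47 ± 0.25, adjusted p = 0.000114 and 1.36 ± 0.15, adjusted p = 0.000131). Pdpn and Pi16 were also called higher. Clec3b and Cd34 fell (-1.05 ± 0.20, adjusted p = 0.00237 and -0.58 ± 0.19, adjusted p = 0.0299). Of 8 activated fibroblast markers 4 were higher and 2 lower. Tnc, for tenascin C, and Runx1, a transcription factor, rose (2.25 ± 0.29, adjusted p = 0.000495 and 2.85 ± 0.16, adjusted p = 4.65e-06), while the sum of the list, most of which is the muscle actin gene Acta2, was 846, 1902 and 1025 CPM in EPS 1 to 3, against 2212, 2279.6 and 2075 CPM in controls 1 to 3. Their part in the rise of Col1a1, Col1a2 and Col3a1 was not tested. Of 7 B and T cell markers 7 were higher, of 6 skeletal muscle markers 2 were higher and 2 lower, and of 2 cartilage and bone markers tested 1 was lower. No listed marker with a row was at 0 in every library. Of 41 chains, 12 share exon bases with another annotated gene, and the share reached 6.07% of the exon bases for Col9a3. No step that marks strand is named, so reads from shared bases cannot be assigned, and their number is not known.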

How the data were processed

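RNA of mouse peritoneum was captured by poly-T beads from 3 µg of total RNA, and fragments of 400 to 500 bp were amplified in 15 PCR cycles, per the labels' protocols, which name no step that marks strand. The deposited values are whole-number read counts per gene symbol in 6 libraries. The reads were placed on mm10, per the submitters' processing notes, and the aligner, counter and gene annotation behind them were not given in these sources. How reads in shared exons were assigned is therefore unknown, and its effect on levels and on folds between groups was not tested.

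The counts were fitted with edgeR 4.0.16 (R 4.3.3; filterByExpr, which kept genes reaching 0.611 CPM in 3 libraries, TMM factors, robust quasi-likelihood F-test), and p-values were adjusted by Benjamini-Hochberg over all 13980 tested genes and called under 0.05. Log2 fold changes are EPS over control with a standard error derived from the F value. Chain ratios were compared by exact permutation (scipy 1.17.1). Alternatives used DESeq2 1.42.0, limma 3.58.1 (voom), other scaling factors and filters, and left-out libraries. Gene positions and lengths come from GENCODE vM21 (GRCm38).

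Chains with a mean of at least 50 counts are given per library. Of the genes that act on collagen, each role's called genes with the lowest adjusted p, at most 4, are named, and of markers up to 2 a list. Serpinh1, Mia3, Sec24d and the further markers named lie outside that rule. The members and lists were chosen with earlier results of these data known. Of the promoters planned for display, that of Col1a1 had no entry in the source. Those of Col1a2, Col4a1 and Col4a2 overlap annotated exons of protein-coding genes and are not printed. The Col1a2 window lies within Col1a2 as annotated.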

Additional observations from a re-analysis of the deposited data

How the results depend on the processing

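Of the 14 chains higher and 11 lower in EPS, leaving out each library gave between 13 and 17 higher and between 7 and 13 lower. Library totals in place of TMM factors gave 6 lower chains, and 37 partner genes higher and 6 lower, against 24 and 20 with TMM. Left-out libraries gave between 21 and 30 partner genes higher and between 16 and 21 lower. In the fibrillar class, 1 chain was lower under library totals, and 1 when controls 1 and 2 were averaged, against 2 in the reported fit, and left-out libraries gave between 1 and 2 lower and between 5 and 7 higher. They gave between 2 and 5 lower chains of collagen IV, between 3 and 4 higher of collagen VI, and between 3 and 5 higher of the FACIT class. On TMM-scaled sizes the mean control share of library counts was 0.967% for all chains, 0.359% for fibrillar chains and 0.382% for collagen IV. At that scaling the sum of all chains averaged 13394 CPM in EPS and 9675 CPM in controls, a ratio of 1.38. On library totals, left-out libraries moved the mean share of all chains between 1.24% and 1.80% in EPS and between 0.829% and 0.847% in controls. For fibrillar chains these were between 0.830% and 1.20% in EPS and between 0.308% and 0.317% in controls. For collagen IV they were between 0.183% and 0.239% in EPS and between 0.328% and 0.336% in controls. The log2 difference of Col8a1 over Col8a2 ran from -0.67 to 0.14.

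Signs turned without EPS 2 for Col6a2 (-0.12 to 0.57 over left-out libraries), Col6a3 (-0.10 to 0.42), Col4a5 (-0.06 to 0.80) and Col4a6 (-1.01 to 0.69), without EPS 1 for Col7a1 (-0.32 to 1.96), with library totals for Col27a1 (0.25), and for Col4a6 by limma-voom (-0.14) and with the replicate block (-0.20). The cause was not tested. The labels share replicate numbers between groups, but deviations of same-numbered libraries correlated at 0.201, -0.095 and 0.236, so the numbers were not taken as pairs. With the replicate block 14 chains were higher and 11 lower. Col15a1 was then called lower (-0.65, adjusted p = 0.0415) and Col9a2 was not called (0.0631). Of the 8 chains under a mean of 50 counts, 7 were tested, of which 3 were higher, 3 lower and 1 not called.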
